A study of Mus musculus with 8 samples.

Results

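Adipokines are the hormones and signalling proteins that fat cells release into the blood or the surrounding tissue, and the adiponectin receptors are the membrane proteins through which the most abundant of them acts. Their expression was examined by RNA-seq in C3H10T1/2 MSCs, an established mesenchymal stem cell line of the mouse that can be turned into fat cells in culture. The genes were taken from the expression tables by their symbols. They were *Adipoq*, *Lep*, *Retn*, *Cfd*, *Nampt*, *Apln*, *Angptl4* and *Rarres2*, which encode secreted proteins, and the receptor genes *Adipor1* and *Adipor2*, and they make up 10 of the 41325 genes listed. The cells were shControl cells, whose genotype is labelled WT, and 3 stable knockdown lines, shKDM4D, shNFIB and shMLL1, made by short hairpin RNA against the histone H3K9 demethylase KDM4D, the transcription factor NFIB and the histone H3K4 methyltransferase MLL1. Each line was sequenced at day 0, when the cells had been confluent for 2 days, and again at day 5 of adipogenesis. Each of these 8 conditions had 1 library. Every line received the same induction with insulin, dexamethasone and isobutylmethylxanthine (MDI) in serum until day 2, followed by insulin for 2 days and then by serum alone. The knockdown lines were puromycin-selected isolated clones, so that a difference between lines is also a difference between clones, and with 1 library the lines and the clones cannot be told apart.

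Adiponectin, the product of *Adipoq*, is secreted almost exclusively by mature fat cells as large multimers and raises fatty acid oxidation and insulin sensitivity in its target tissues. Its receptors, AdipoR1 and AdipoR2, span the membrane with the amino end inside the cell and belong to the progestin and adipoQ receptor family. Leptin (*Lep*) tells the brain how much fat is stored, adipsin (*Cfd*) is the protease that activates the alternative complement pathway, and resistin (*Retn*) is made by fat cells in mice. Chemerin (*Rarres2*) is a chemoattractant, apelin (*Apln*) is the ligand of a G protein-coupled receptor, and ANGPTL4 inhibits lipoprotein lipase. NAMPT, also called visfatin, is the rate-limiting enzyme of NAD salvage inside the cell and is also found outside it.

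Expression was given as RPKM, the reads per kilobase of exon scaled to the mapped reads of the library, and the read numbers below were recovered from it. The libraries held between 15800000 and 38200000 mapped reads. *Nfib* in shNFIB cells was at 23.3% of the shControl RPKM at day 0 and 19.9% at day 5, and *Kmt2a*, which encodes MLL1, was at 38.7% and 30.9% in shMLL1 cells. *Kdm4d* was covered by 1 to 15 reads in any library, with 13 reads in shControl and 4 in shKDM4D cells at day 5. The MSC or fibroblast markers *Col1a1*, *Col1a2*, *Pdgfra*, *Pdgfrb*, *Thy1*, *Ly6a* and *Eng* were all above an RPKM of 1 in shControl and shMLL1 cells, but *Thy1* was at 22.6 to 25.0 in shControl cells, 11.1 to 11.8 in shMLL1 cells and 0.0171 to 0.139 in shKDM4D and shNFIB cells. The part of this difference between the clones in the results below was not tested. The summed RPKM of 6 leukocyte markers was between 0.586 and 2.24 and that of 4 endothelial markers between 0.238 and 1.72. The summed RPKM of 7 adipocyte markers (*Fabp4*, *Plin1*, *Cidec*, *Lpl*, *Gpd1*, *Pparg* and *Cebpa*) was 4.15 to 11.1 at day 0. At day 5 it reached 550 in shControl cells, 31.2 in shKDM4D cells, and the shNFIB and shMLL1 libraries stood at 12.02 and 12.04. In cultures sequenced as a whole, fewer fat cells and less RNA per fat cell cannot be told apart.

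The promoters of the genes fell into separate classes by their sequence. RefSeq entries of the GRCm38.p6 assembly, each from 250 bases before to 50 bases after a transcription start site, were found for 8 of the 10 genes. The *Adipoq* promoter held 0 CpG dinucleotides, as did 5.43% of the 32851 promoters in the table, and the promoters of *Retn* and *Cfd* held 2 each, with 23.3% of promoters at 2 or fewer. The others held between 15 (*Apln*) and 41 (*Adipor2*), with 19 in *Lep*, 36 in *Nampt*, and 21 and 40 at the 2 start sites of *Adipor1*, against a median of 7 over all promoters. The *Adipoq* promoter is shown first, with matches to the NFI core motif TTGGC and the C/EBP motif TTNNGNAA in capitals, because NFIB is one of the proteins targeted and *Adipoq* had the highest level of these genes in shControl cells at day 5.

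*Adipoq*, chr16:23146286-23146585 (GRCm38.p6, plus strand): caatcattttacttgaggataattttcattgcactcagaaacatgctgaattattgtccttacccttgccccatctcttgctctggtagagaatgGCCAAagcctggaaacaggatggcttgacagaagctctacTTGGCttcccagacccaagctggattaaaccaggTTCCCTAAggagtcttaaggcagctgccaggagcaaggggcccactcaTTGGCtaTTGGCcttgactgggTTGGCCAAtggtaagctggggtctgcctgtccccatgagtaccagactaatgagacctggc

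The NFI core was found 6 times on either strand of this promoter, at positions -155, -115, -33, -26, -11 and -8 from the start site, the last 2 overlapping on opposite strands. At least 1 such match was present in 46.7% of all promoters, and 6 or more in 9 promoters (0.0274%). The limit of 6 was taken from the count in *Adipoq* itself, so that this share is a description and not a test. Among the other genes, 1 match was present in *Lep*, *Retn*, *Nampt* and *Apln* and 2 in 1 of the *Adipor1* windows, and none was found in *Cfd* or *Adipor2*. The C/EBP motif, held by 40.7% of promoters, matched in *Adipoq* at -81, in *Adipor2* at -225 and in *Lep* at -55, where the letters TTGCGCAA read the same on both strands. The nuclear receptor core motif AGGTCA, held by 16.3% of promoters, matched in *Nampt* at -151. The TATA box TATAAA, held by 13.6% of promoters, the DR1 site of a pair of such cores 1 base apart (0.0396%) and the full NFI site, the core and its inverse 5 bases apart (0.0365%), were matched in none of the promoters of these genes. All motifs were searched on both strands, and a match describes letters in this window, not binding.

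To show the CpG classes, the promoters of *Retn* and *Cfd* are set against those of *Nampt* and *Adipor2*, with each CpG in capitals. The classes did not follow expression in all of these genes, since *Lep*, with 19 CpG, had 0 reads in every library. A link between CpG content and expression was not tested.
*Retn*, chr8:3655520-3655819 (GRCm38.p6, plus strand): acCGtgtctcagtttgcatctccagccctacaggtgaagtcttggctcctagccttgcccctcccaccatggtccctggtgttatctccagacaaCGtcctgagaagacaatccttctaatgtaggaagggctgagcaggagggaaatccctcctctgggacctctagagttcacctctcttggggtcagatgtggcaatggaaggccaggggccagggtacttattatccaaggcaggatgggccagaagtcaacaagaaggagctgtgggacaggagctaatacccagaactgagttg
*Cfd*, chr10:79890603-79890902 (GRCm38.p6, plus strand): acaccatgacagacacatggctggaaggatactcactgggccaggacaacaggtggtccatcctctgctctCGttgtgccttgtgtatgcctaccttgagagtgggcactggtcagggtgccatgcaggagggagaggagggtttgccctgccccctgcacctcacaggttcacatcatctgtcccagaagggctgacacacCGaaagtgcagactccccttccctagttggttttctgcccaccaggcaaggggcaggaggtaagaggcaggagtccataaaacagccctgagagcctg
*Nampt*, chr12:32820085-32820384 (GRCm38.p6, plus strand): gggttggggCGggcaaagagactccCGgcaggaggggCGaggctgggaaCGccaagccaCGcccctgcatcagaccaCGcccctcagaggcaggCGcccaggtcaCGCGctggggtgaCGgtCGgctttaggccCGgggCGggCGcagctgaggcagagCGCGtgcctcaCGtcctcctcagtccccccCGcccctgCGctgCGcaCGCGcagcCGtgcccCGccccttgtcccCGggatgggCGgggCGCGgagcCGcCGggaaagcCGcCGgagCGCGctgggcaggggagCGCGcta
*Adipor2*, chr6:119388685-119388984 (GRCm38.p6, minus strand): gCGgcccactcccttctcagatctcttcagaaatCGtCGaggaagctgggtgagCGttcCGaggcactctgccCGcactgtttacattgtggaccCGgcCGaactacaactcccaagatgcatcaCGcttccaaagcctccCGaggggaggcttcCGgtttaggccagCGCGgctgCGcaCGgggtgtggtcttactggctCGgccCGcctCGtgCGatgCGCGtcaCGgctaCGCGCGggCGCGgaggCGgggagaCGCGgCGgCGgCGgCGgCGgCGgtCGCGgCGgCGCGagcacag

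In shControl cells, adipogenesis was accompanied by a higher expression of nearly all of these genes. Of the 10 genes, 9 had an RPKM over 1 in at least 1 library, and *Lep* had 0 reads in all of them. From day 0 to day 5, 8 genes were more than 2-fold higher in shControl cells and 0 were lower, beside 13.0% and 8.56% of the 11513 genes that passed the same limit. In shKDM4D cells 7 were higher and 0 lower (12.8% and 8.44% of all such genes). In shNFIB cells 5 were higher and 0 lower (12.6% and 4.96%), 1 of them *Cfd* on 1 read against 0. In shMLL1 cells 6 were higher and 0 lower (20.4% and 6.89%), 1 of them *Retn* on 2 reads against 0. As there was 1 library per condition, the 95% intervals given with the ratios cover counting error only. With an interval that leaves out no change also required, 8, 6, 3 and 4 genes were past 2-fold in shControl, shKDM4D, shNFIB and shMLL1 cells. Among those lost were *Retn* in shKDM4D cells (6 reads against 1, log2 interval -0.60 to 7.96) and *Cfd* in shMLL1 cells (7 against 1, -0.15 to 8.30). No comparison within 1 line, or between lines at 1 day, could be tested, and the difference from the share of all genes was not tested.

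The change with time that the lines had in common was tested by limma on log2(RPKM + 0.1) over the 11513 genes, with the line kept as a block, an analysis chosen after the data were seen. The spread here is that between the 4 lines, not between replicate cultures. Of the 9 genes, 6 were higher at day 5 at a Benjamini-Hochberg adjusted p under 0.05 and 0 were lower, beside 29.0% of all genes higher and 2415 of the 11513 lower. The mean change was 6.09 (SE 0.38, adjusted p = 0.00049) for *Rarres2*, 1.98 (0.16, 0.00066) for *Nampt*, 1.37 (0.12, 0.00075) for *Apln* and 1.12 (0.22, 0.0086) for *Adipor2*, each higher in 4 of 4 lines and past the same limit whichever line was left out. *Adipoq* rose by 5.37 (SE 1.53, adjusted p = 0.029), but the adjusted p was 0.090 without shKDM4D cells. *Angptl4* rose by 1.34 (0.41, 0.036), with an adjusted p of 0.11 without shControl and 0.12 without shKDM4D cells. *Cfd* (adjusted p = 0.085), *Retn* (0.20) and *Adipor1* (0.63) did not pass.

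**Figure D1:**
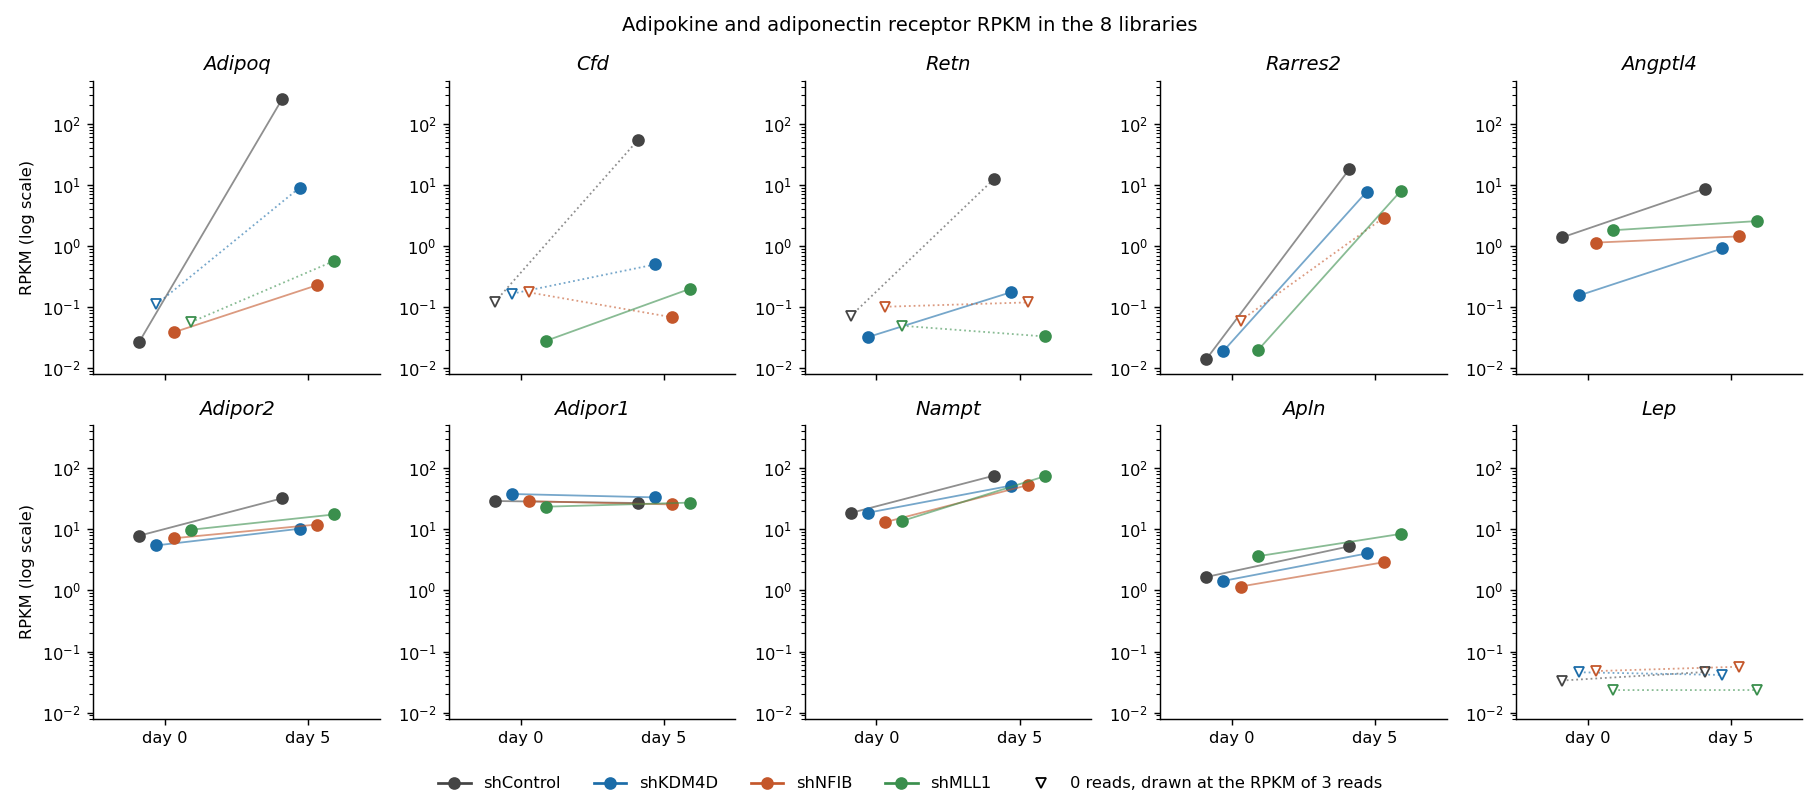
RPKM of the 10 genes on a log scale at day 0 and day 5 in shControl, shKDM4D, shNFIB and shMLL1 cells, 1 point per library; open triangles mark libraries with 0 reads, drawn at the RPKM that 3 reads would give, and dotted lines lead to or from them. *Adipoq*, *Cfd* and *Retn* reach 258, 54.6 and 12.4 only in the shControl library at day 5, whereas *Adipor1* lies between 23.4 and 37.7 in all 8 libraries.

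*Adipoq* (chromosome 16 of GRCm38, 23146536 to 23158028, plus strand, protein coding) had an RPKM of 0.0272 at day 0 and 258 at day 5 in shControl cells, from 1 and 6892 reads. This put it at rank 153 of the 11513 genes at day 5. In shKDM4D cells it went from 0 to 9.01 (0 and 269 reads), in shNFIB cells from 0.0388 to 0.229 (1 and 5 reads) and in shMLL1 cells from 0 to 0.570 (0 and 30 reads). All 4 lines were thus without detectable adiponectin mRNA beyond 1 read before the induction, and at day 5 the shControl library stood far above the other libraries. The log2 change in shControl cells was 13.21 with an interval from 10.73 to 18.52, wide because of the single read at day 0. The gene was at least 81.0-fold higher at day 5 in shKDM4D and at least 10.0-fold higher in shMLL1 cells, taking 3 reads for the library at 0. In shNFIB cells the log2 change of 2.56 had an interval from -0.60 to 8.12 and so did not leave out 0.

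At day 5 the log2 ratio of *Adipoq* to shControl cells was -4.84 (95% interval -5.02 to -4.66) in shKDM4D, -10.14 (-11.77 to -8.92) in shNFIB cells and -8.82 (-9.39 to -8.31) in shMLL1 cells. The level kept was 3.49%, 0.0885% and 0.221% of shControl cells. These 3 ratios share the shControl library. Compared directly, shKDM4D cells had 39.4-fold more *Adipoq* than shNFIB cells (log2 5.30, 4.06 to 6.94) and 15.8-fold more than shMLL1 cells (3.98, 3.44 to 4.58). The shNFIB and shMLL1 libraries did not differ beyond counting error (-1.32, -3.04 to 0.06).

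The level of *Adipoq* was also set against that of *Fabp4*, the fatty acid binding protein gene used as the adipocyte marker. At day 5 the ratio of the RPKM of *Adipoq* to that of *Fabp4* was 0.933 (0.908 to 0.959) in shControl and 0.965 (0.839 to 1.11) in shKDM4D cells. The intervals overlap, so that in shKDM4D cells adiponectin was as far below shControl cells as the marker was, within counting error. In shNFIB cells the ratio was 0.602 (0.181 to 1.59) and in shMLL1 cells 0.326 (0.216 to 0.475), the latter below both. At day 5 *Adipoq* and *Fabp4* were both far below shControl cells in each knockdown line, but in shMLL1 cells *Adipoq* was further below than *Fabp4*. The part of adipocyte marker content in the level of *Adipoq* was not tested.

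The receptor genes differed from their ligand and from each other. *Adipor1* (chromosome 1, 134415378 to 134433351, plus strand) had an RPKM of 29.0 and 26.8 in shControl, 37.7 and 33.2 in shKDM4D, 28.7 and 25.4 in shNFIB and 23.4 and 27.2 in shMLL1 cells at day 0 and day 5. No library was more than 2-fold from another in these comparisons, and the shKDM4D libraries were the highest at both days. The log2 change with time was -0.11 (-0.18 to -0.04) in shControl, -0.18 (-0.25 to -0.12) in shKDM4D and -0.18 (-0.26 to -0.09) in shNFIB cells, but 0.22 (0.16 to 0.28) in shMLL1 cells. Over all expressed genes the median change in shMLL1 cells was 0.17, with 0.1 added to each RPKM, and scaling by the median of ratios brought the *Adipor1* change there to 0.01. As a ratio to *Gapdh* the *Adipor1* change was -0.08 in shControl and -0.74 in shNFIB cells, but 0.29 in shKDM4D and 0.10 in shMLL1 cells. The contrast between the lines thus depended on the scaling.

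*Adipor2* (chromosome 6, 119353150 to 119417704, minus strand) had an RPKM of 7.84 and 32.2 in shControl, 5.44 and 10.2 in shKDM4D, 7.11 and 11.9 in shNFIB and 9.80 and 17.4 in shMLL1 cells at day 0 and day 5. It was higher at day 5 in every line, with the shControl library above all others. The log2 change was 2.04 (1.94 to 2.13) in shControl cells, against 0.90 (0.77 to 1.04) in shKDM4D, 0.75 (0.61 to 0.88) in shNFIB cells and 0.83 (0.76 to 0.91) in shMLL1 cells. The difference of these changes from that of shControl cells was -1.13 (-1.30 to -0.97), -1.29 (-1.45 to -1.13) and -1.21 (-1.32 to -1.09), with the shControl pair in common. As a ratio to *Gapdh* the shControl cells changed by 2.07 and the shKDM4D cells by 1.37, followed by 0.71 in shMLL1 and 0.18 in shNFIB cells, so that the size of the difference in shKDM4D and shNFIB cells depended on the scaling and the change in shKDM4D cells was past 2-fold. At day 5 the ratio to shControl cells was -1.66 (-1.75 to -1.57), -1.43 (-1.53 to -1.33) and -0.88 (-0.95 to -0.82) in shKDM4D, shNFIB and shMLL1 cells, so that 31.7%, 37.1% and 54.2% of the level was kept. As a ratio to *Gapdh*, *Adipor2* in shMLL1 cells was at -1.24 and thus past 2-fold.

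Since RPKM is per length of exon, the 2 receptors can be compared within a library. The ratio of *Adipor2* to *Adipor1* in shControl cells moved from 0.271 (0.254 to 0.289) before the induction to 1.20 (1.14 to 1.26) at day 5. It went from 0.145 (0.133 to 0.157) to 0.307 (0.288 to 0.327) in shKDM4D cells, from 0.248 (0.229 to 0.268) to 0.469 (0.436 to 0.505) in shNFIB cells and from 0.419 (0.398 to 0.441) to 0.641 (0.615 to 0.668) in shMLL1 cells. Of the 8 libraries, *Adipor2* was thus above *Adipor1* by RPKM only in shControl cells at day 5. A ratio within a library does not depend on how the libraries are scaled. Its level, and so whether it passes 1, depends on the exon lengths taken for the 2 genes, 5979 and 5025 bases. The counting intervals do not cover this, whereas a change of the ratio between libraries does not depend on these lengths.

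**Figure D2:**
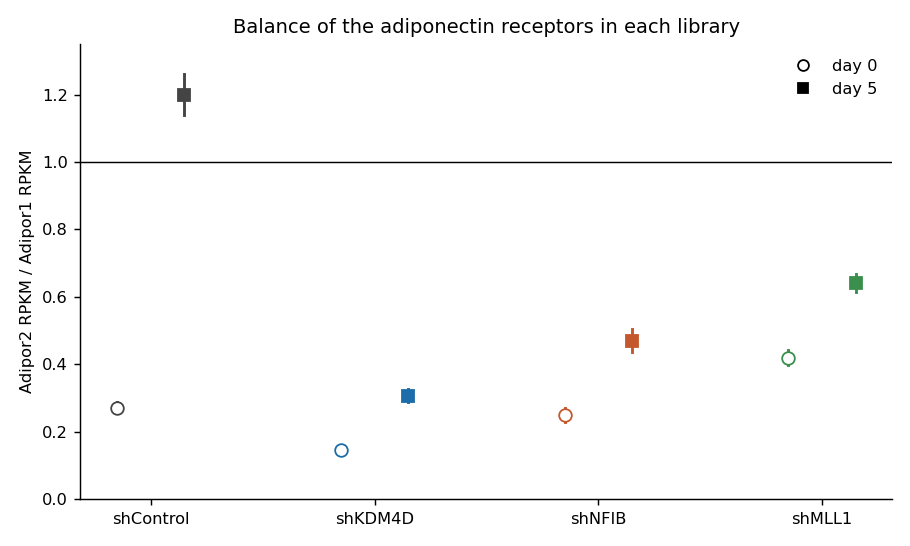
Ratio of the RPKM of *Adipor2* to that of *Adipor1* in each of the 8 libraries, with exact 95% counting intervals as vertical lines; open circles are day 0, filled squares day 5, and the horizontal line marks equal levels. The shControl library at day 5 lies at 1.20, above the line, and the other 7 lie between 0.145 and 0.641.

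Of 14 genes for adiponectin signalling and secretion, 11 had an RPKM over 1 in some library, and 4 of these were more than 2-fold higher and 0 lower at day 5 in shControl cells, beside 13.0% and 8.56% of all expressed genes. Beside *Adipoq* and *Adipor2* they included *Appl2*, which encodes a partner of the receptors' adaptor protein, at 17.6 and 44.2. *Appl2* was at 45.8 in shKDM4D, 26.0 in shNFIB cells and 37.6 in shMLL1 cells at day 5, within 2-fold of shControl cells. *Ero1l*, an oxidase that helps adiponectin multimers to form, was at 26.1 and 25.6 in shControl cells and at 11.03 and 40.1 in shMLL1 cells. In shNFIB cells *Ero1l* was also higher at day 5 (13.1 and 28.1), and in shKDM4D cells it was lower (30.1 and 15.8). *Cdh13*, whose product T-cadherin binds adiponectin multimers, was at 3.66 at day 5 in shControl cells against 1.58, 1.67 and 2.60 in shKDM4D, shNFIB and shMLL1 cells. Over this list the change of the shControl cells with time had a median of 0.00 on the log2 scale, with 0.1 added to each RPKM, beside 0.03 over all expressed genes. Of the receptor family, *Paqr4* was at 25.1 at day 5 in shControl cells against 17.3, 10.1 and 6.30 in shKDM4D, shNFIB and shMLL1 cells, and *Paqr8*, which encodes a membrane progesterone receptor, at 15.3 against 12.3, 11.3 and 5.64. *Mmd* was within 2-fold of its day 0 level in shControl cells (5.72 and 5.79) but went from 6.53 to 3.04, from 10.3 to 3.21 and from 13.0 to 2.87 in the knockdown lines. Of 9 adiponectin paralogs of the C1q/TNF family, 3 passed an RPKM of 1, and none was more than 2-fold from shControl cells at day 5, where 4.57%, 5.67% and 4.02% of all expressed genes were lower and 1.88%, 5.54% and 5.25% higher in shKDM4D, shNFIB and shMLL1 cells. *C1qtnf5* was at 1.39 and 9.73 in shControl cells and between 6.12 and 7.57 in the knockdown lines at day 5.

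*Cfd* (chromosome 10, 79890853 to 79892655, plus strand) had 0 reads at day 0 and an RPKM of 54.6 at day 5 (973 reads) in shControl cells. In the knockdown lines it had 0 and 10 reads (shKDM4D, RPKM 0.502 at day 5), 0 and 1 read (shNFIB, 0.0685) and 1 and 7 reads (shMLL1, 0.199). Adipsin mRNA was therefore seen at more than 10 reads in a single library. It was at least 447-fold higher at day 5 in shControl cells. Relative to shControl cells, the log2 ratio at day 5 was -6.77 (-7.83 to -5.88), -9.64 (-14.94 to -7.16) and -8.10 (-9.42 to -7.05) in shKDM4D, shNFIB and shMLL1 cells. In shKDM4D cells this was further below shControl cells than *Adipoq*, with a ratio of *Cfd* to *Adipoq* of 0.0557 (0.0264 to 0.104) against 0.211 (0.198 to 0.226) in shControl cells.

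The partners of adipsin in the alternative complement pathway had another pattern. *C3*, whose product is the central complement protein, was at 60.5 and 956 in shControl cells and at 753, 507 and 764 at day 5 in shKDM4D, shNFIB and shMLL1 cells, within 2-fold of shControl cells in each. *Cfb*, whose product adipsin cleaves, was at 3.33 in shControl cells at day 5, with a log2 ratio to this level of -1.60 in shKDM4D, 1.26 in shNFIB cells and 2.89 in shMLL1 cells. Its level was therefore lower in the first line and higher in the other two. *Cfd* was more than 2-fold lower at day 5 in all 3 knockdown lines, whereas *C3* was so in none and *Cfb* in 1.

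*Retn* (chromosome 8, 3655770 to 3660110, plus strand) had 0 reads at day 0 and an RPKM of 12.4 at day 5 (378 reads) in shControl cells. It had 1 and 6 reads in shKDM4D (RPKM 0.0324 and 0.176), 0 and 0 in shNFIB and 0 and 2 in shMLL1 cells (0.0332 at day 5). As with *Adipoq* and *Cfd*, the shControl library at day 5 stood alone. Resistin was at least 174-fold higher there than at day 0. Relative to shControl cells, the log2 ratio at day 5 was -6.14 (-7.59 to -5.00) in shKDM4D cells and -8.54 (-11.59 to -6.68) in shMLL1 cells, and the gene was at least 103-fold lower in shNFIB cells. *Cap1*, which encodes a proposed resistin receptor, was between 112 and 173 in all libraries.

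*Lep* (chromosome 6, 29060220 to 29073877, plus strand) had 0 reads in each of the 8 libraries. This allows an RPKM of up to 0.0234 in the deepest library and of up to 0.0565 in the shallowest, taking 3 reads as the limit, and for the shControl library at day 5 the limit was 0.0463. Leptin mRNA was therefore not detectable at this depth in the same library in which *Adipoq* ranked 153. The leptin receptor gene *Lepr* was at 0.0706 or less in every library.

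*Rarres2* (chromosome 6, 48569696 to 48572789, minus strand) was higher at day 5 in all lines. It had 0 to 2 reads in every library at day 0, and at day 5 an RPKM of 18.2 in shControl (933 reads), 7.72 in shKDM4D (443 reads), 2.92 in shNFIB cells (123 reads) and 8.04 in shMLL1 cells (814 reads). No knockdown library at day 5 was near its day 0 level, and the shControl library was the highest. The log2 change was 10.33 (7.85 to 15.63) in shControl, 8.65 (6.16 to 13.95) in shKDM4D cells and 8.67 (6.81 to 11.72) in shMLL1 cells, and the gene was at least 48.3-fold higher at day 5 in shNFIB cells. Relative to shControl cells, the log2 ratio at day 5 was -1.24 (-1.40 to -1.07), -2.64 (-2.92 to -2.36) and -1.18 (-1.31 to -1.04) in shKDM4D, shNFIB and shMLL1 cells. The shKDM4D and shMLL1 libraries did not differ from each other beyond counting error (-0.06, -0.23 to 0.11), and shNFIB cells had less than shKDM4D cells by 2.64-fold and less than shMLL1 cells by 2.75-fold.

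Chemerin thus kept 42.5%, 16.1% and 44.2% of the shControl level, where adiponectin kept 3.49%, 0.0885% and 0.221%. The ratio of *Rarres2* to *Adipoq* at day 5 was 0.0704 (0.0657 to 0.0754) in shControl cells, 0.856 (0.734 to 1.00) in shKDM4D, 12.8 (5.34 to 40.1) in shNFIB cells and 14.1 (9.81 to 21.05) in shMLL1 cells. The gene overlaps *Lrrc61* on the opposite strand, and whether reads were counted by strand is not given in the sources used here. *Lrrc61* was at 1.12 to 1.98 at day 0, when *Rarres2* had at most 2 reads, and at 1.78 to 3.85 at day 5. The chemerin receptor gene *Cmklr1* was at 4.26 to 9.89 in the 8 libraries and was not more than 2-fold from shControl cells at either day, and *Gpr1*, which encodes another chemerin receptor, had an RPKM of 0 in all.

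*Apln* (chromosome X, 48025146 to 48034853, minus strand) had an RPKM of 1.66 and 5.26 in shControl, 1.43 and 4.01 in shKDM4D, 1.16 and 2.89 in shNFIB and 3.62 and 8.40 in shMLL1 cells at day 0 and day 5. The shMLL1 libraries were the highest at both days. The log2 change with time was 1.67 (1.37 to 1.96), 1.49 (1.14 to 1.85), 1.32 (0.89 to 1.76) and 1.22 (1.05 to 1.38) in shControl, shKDM4D, shNFIB and shMLL1 cells, more than 2-fold in each. With quantile normalization the changes in shNFIB and shMLL1 cells were 1.00 and 0.97, just within 2-fold. In shNFIB cells the change was 0.75 as a ratio to *Gapdh* and 0.85 with 1 added to each RPKM, also within 2-fold. At day 0 shMLL1 cells had 2.18-fold more than shControl cells (log2 1.13, 0.85 to 1.41), which came to 0.91 as a ratio to *Gapdh* and so within 2-fold. At day 5 the ratio was 0.68 (0.49 to 0.86) in shMLL1, -0.39 (-0.63 to -0.15) in shKDM4D and -0.87 (-1.16 to -0.58) in shNFIB cells, all within 2-fold. The gene of the apelin receptor, *Aplnr*, was at 0.0579 or less in every library.

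*Angptl4* (chromosome 17, 33773750 to 33781830, minus strand) had an RPKM of 1.38 and 8.72 in shControl (121 and 554 reads), 0.156 and 0.915 in shKDM4D (10 and 65 reads), 1.14 and 1.44 in shNFIB (70 and 75 reads) and 1.82 and 2.56 in shMLL1 cells (228 and 321 reads). These read numbers rest on an exon length that differs from the annotated one, which does not touch the ratios of RPKM. The knockdown lines departed from shControl cells in different ways. In shKDM4D cells the level was already 8.88-fold lower at day 0 (log2 -3.15, -4.25 to -2.22), while the change from day 0 to day 5 was 2.55 (1.58 to 3.68) beside 2.66 (2.37 to 2.95) in shControl cells. The interval of the difference between these changes, -1.10 to 0.90, is wide, so that a difference of more than 2-fold is not left out. With quantile normalization the changes were 1.31 and 2.57 in shKDM4D and shControl cells, and so the likeness of the changes depended on the scaling. In shNFIB and shMLL1 cells the level at day 0 was within 2-fold of shControl cells (-0.28, -0.72 to 0.16, and 0.39, 0.07 to 0.72), while the change was only 0.34 (-0.15 to 0.83) and 0.50 (0.25 to 0.75). The difference of their changes from that of shControl cells was -2.32 (-2.87 to -1.77) and -2.16 (-2.54 to -1.79). At day 5 the ratio to shControl cells was -3.25 (-3.65 to -2.88), -2.60 (-2.97 to -2.25) and -1.77 (-1.97 to -1.57) in shKDM4D, shNFIB and shMLL1 cells.

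*Lpl*, which encodes the lipase that ANGPTL4 inhibits, was at 0.0143 and 33.1 in shControl cells and at 0.998, 0.151 and 0.0501 at day 5 in shKDM4D, shNFIB and shMLL1 cells. The enzyme was thus lowest in shMLL1 cells and its inhibitor in shKDM4D cells. *Angptl2*, a family member that acts on inflammation, was lower at day 5 in shControl cells (67.1 and 24.7) and was at 26.2 to 31.5 at day 5 in the knockdown lines. Of the 10 genes of this list, 6 had an RPKM over 1, and 2, 3 and 3 of them were more than 2-fold below shControl cells at day 5 in shKDM4D, shNFIB and shMLL1 cells, beside 4.57%, 5.67% and 4.02% of all expressed genes. *Angptl4* and *Lpl* were among them in each line.

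*Nampt* (chromosome 12, 32819545 to 32853349, plus strand) was the secreted gene expressed in every library at a high level. Its RPKM was 18.4 and 75.0 in shControl, 18.6 and 51.6 in shKDM4D, 13.0 and 52.8 in shNFIB and 13.7 and 74.0 in shMLL1 cells at day 0 and day 5. All libraries at day 5 were above all libraries at day 0, and none of the knockdown lines was more than 2-fold from shControl cells at either day. The log2 change was 2.03 (1.96 to 2.09) in shControl, 1.47 (1.40 to 1.55) in shKDM4D, 2.02 (1.93 to 2.11) in shNFIB cells and 2.44 (2.38 to 2.50) in shMLL1 cells. The day 5 level was at 98.7% of shControl cells in shMLL1 cells (-0.02, -0.06 to 0.02), where that of *Adipoq* was at 0.221%. It was at 68.9% in shKDM4D and 70.4% in shNFIB cells. The noncoding gene *Gdap10* lies on the same strand within the span of *Nampt* and was at 0.182 to 1.79. *Nnmt*, whose product uses up nicotinamide, the substrate of NAMPT, was at 1.43 and 4.30 in shControl cells and at 1.70, 0.841 and 6.77 at day 5 in shKDM4D, shNFIB and shMLL1 cells. *Nmnat2*, which encodes the next enzyme of the route to NAD, was at 1.15 and 5.92 in shControl cells and between 4.12 and 7.11 at day 5 in the other lines.

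**Figure D3:**
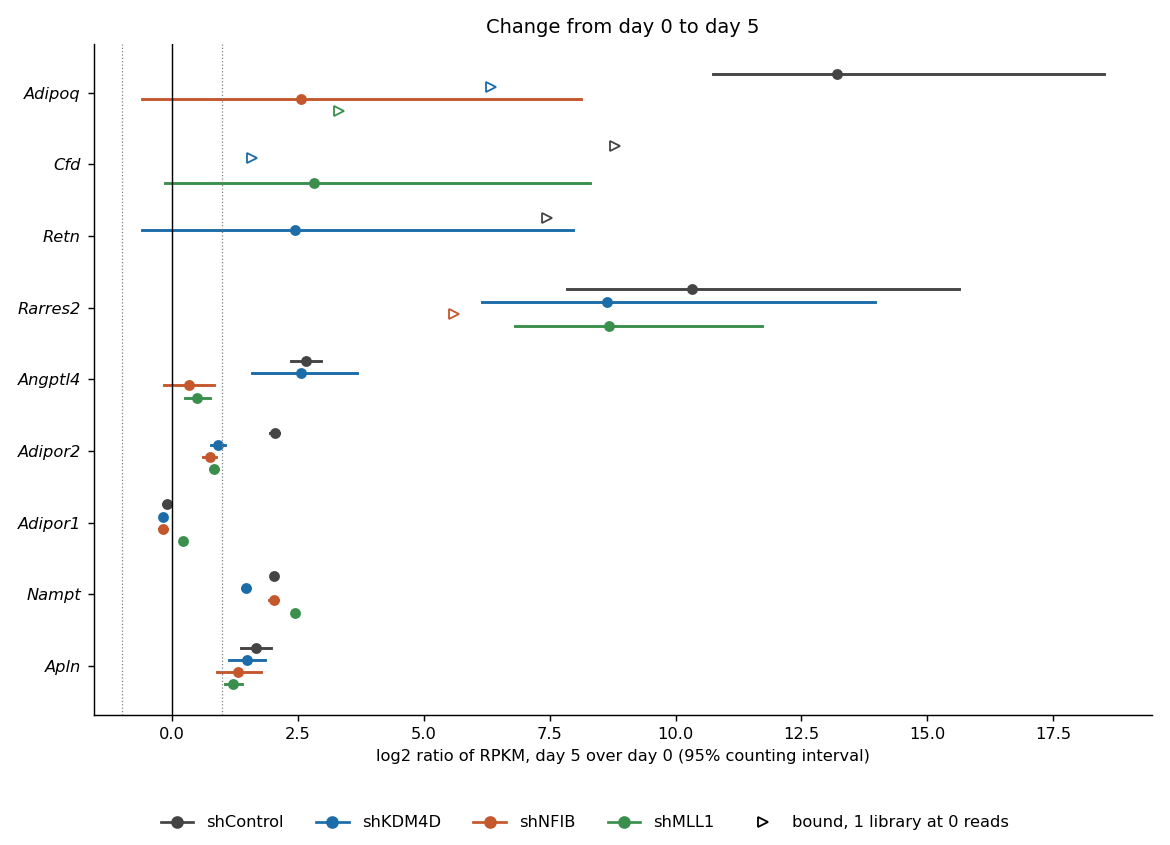
log2 ratio of the RPKM at day 5 to that at day 0 for the 9 genes with an RPKM over 1 in some library, in shControl, shKDM4D, shNFIB and shMLL1 cells; points with lines are ratios with exact 95% counting intervals, open triangles are bounds taken against 3 reads, and pairs with at most 3 reads in both libraries are not drawn. *Adipor2* lies at 2.04 in shControl cells and at 0.75 to 0.90 in the knockdown lines, and *Angptl4* at 2.66 and 2.55 in shControl and shKDM4D cells but at 0.34 and 0.50 in shNFIB and shMLL1 cells.

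The question of whether the knockdown lines differed before the induction was asked at day 0. In shKDM4D cells 1 gene was more than 2-fold higher and 2 lower (1.98% and 4.26% of all expressed genes), of which *Angptl4* alone rested on more than 3 reads. In shNFIB cells 0 were higher and 1 lower (2.95% and 6.05%), the last on 1 read or fewer. In shMLL1 cells 2 were higher and 1 lower (1.67% and 7.43%), of which *Apln* alone rested on more than 3 reads. *Adipoq*, *Cfd*, *Retn* and *Rarres2* had at most 2 reads in any library at day 0, so that a difference between lines was not detectable for them at this depth.

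The other genes were within 2-fold of shControl cells at day 0. *Adipor1* was at 0.38 (0.31 to 0.45) on the log2 scale in shKDM4D, -0.01 (-0.08 to 0.06) in shNFIB cells and -0.31 (-0.37 to -0.25) in shMLL1 cells. *Adipor2* had the opposite order, with -0.53 (-0.67 to -0.39), -0.14 (-0.27 to -0.01) and 0.32 (0.22 to 0.42). *Nampt* was at 0.01 (-0.07 to 0.10), -0.50 (-0.60 to -0.40) and -0.43 (-0.51 to -0.35). Taking the ratio to *Gapdh* in place of RPKM reversed the sign of small ratios at day 0, among them those of *Adipor1* in shKDM4D cells (-0.02) and of *Adipor2* in shNFIB cells (0.50).

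**Figure D4:**
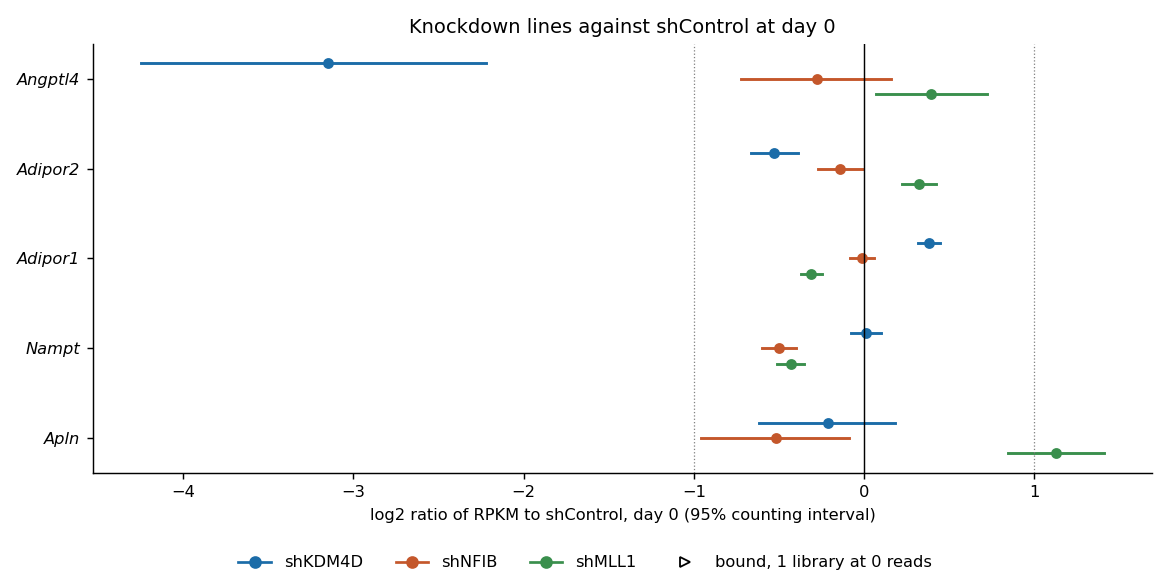
log2 ratio of the RPKM in shKDM4D, shNFIB and shMLL1 cells to that in shControl cells at day 0 for the 5 genes with more than 3 reads in every library, with exact 95% counting intervals; dotted lines mark 2-fold. *Angptl4* in shKDM4D cells lies at -3.15 and *Apln* in shMLL1 cells at 1.13, and the other points lie within 2-fold.

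At day 5, 6 of the genes were more than 2-fold below shControl cells in shKDM4D and in shNFIB cells (*Adipoq*, *Retn*, *Cfd*, *Angptl4*, *Rarres2* and *Adipor2*). In shMLL1 cells 5 were, the same without *Adipor2*. The shares of all expressed genes were 4.57%, 5.67% and 4.02%. None of the 10 genes was more than 2-fold above shControl cells in any of the lines, beside 1.88%, 5.54% and 5.25% of all expressed genes. The order of the genes by the level kept was alike in its outline in each line, with *Adipoq*, *Cfd* and *Retn* at 3.49% or less, *Angptl4*, *Rarres2* and *Adipor2* at 10.5% to 54.2%, and *Nampt*, *Apln* and *Adipor1* at 54.9% to 160%. All 3 lines were set against the same shControl library, so that these orders are not independent of each other.

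**Figure D5:**
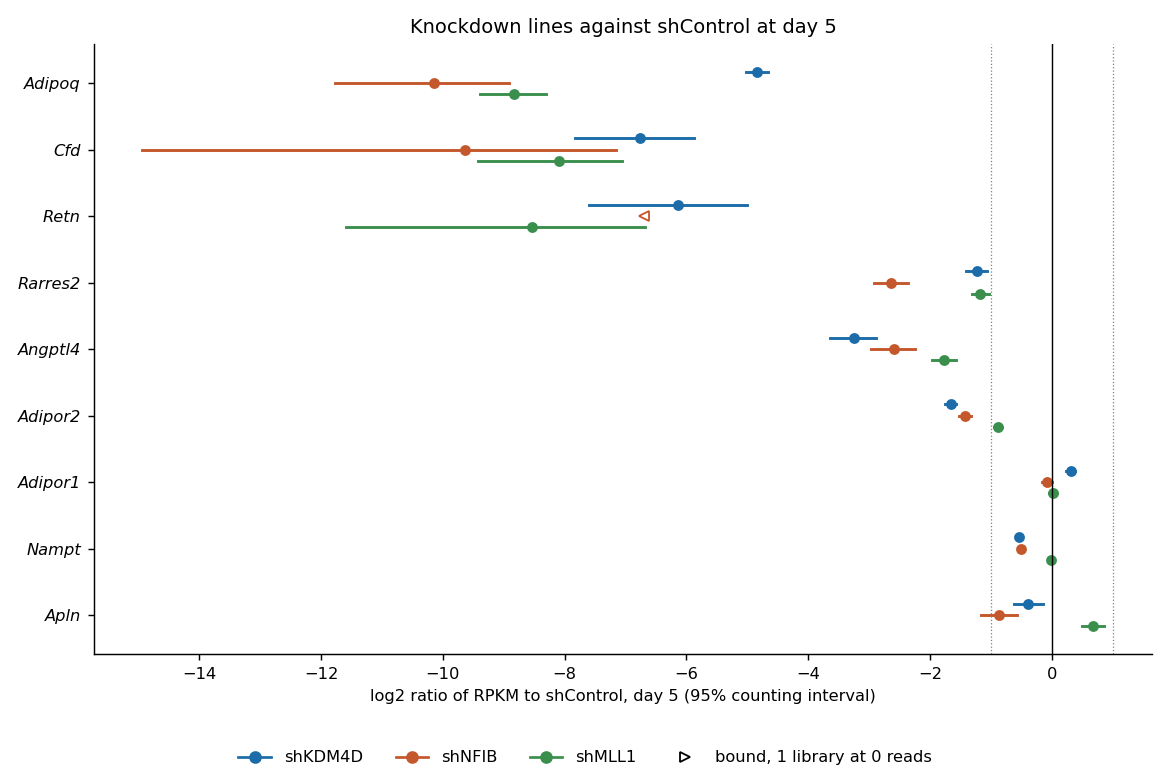
log2 ratio of the RPKM in shKDM4D, shNFIB and shMLL1 cells to that in shControl cells at day 5 for 9 genes, with exact 95% counting intervals; the open triangle is a bound taken against 3 reads, and dotted lines mark 2-fold. *Adipoq* lies at -4.84, -10.14 and -8.82, whereas *Adipor1* lies between -0.08 and 0.31.

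Other secreted products of fat tissue were counted for comparison. Of 18 genes listed, 11 had an RPKM over 1, and 5 of these were more than 2-fold higher at day 5 in shControl cells and 0 lower (13.0% and 8.56% of all expressed genes). At day 5, 2 were lower and 0 higher in shKDM4D than in shControl cells (4.57% and 1.88%), 4 lower and 3 higher in shNFIB cells (5.67% and 5.54%) and 3 lower and 1 higher in shMLL1 cells (4.02% and 5.25%). *Hp*, which encodes the haemoglobin-binding protein haptoglobin, was at 304 in shControl cells at day 5 against 29.1, 9.43 and 5.96 in shKDM4D, shNFIB and shMLL1 cells. *Agt*, the angiotensinogen gene, was at 96.4 against 7.41, 0.868 and 20.9, and both genes were lower than in shControl cells in every line. *Lcn2*, the gene of the iron-siderophore carrier lipocalin 2, was at 44.3 against 29.9, 15.6 and 48.4. It was thus more than 2-fold lower in shNFIB cells only. *Cxcl12*, a chemokine gene, was at 418 against 523, 254 and 111, and *Adm*, which encodes the vasodilator adrenomedullin, at 34.3 against 18.9, 13.3 and 19.5. *Ccl2*, which encodes a monocyte chemoattractant, was at 75.6 against 70.9, 249 and 99.4.

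The genes whose pattern over the 8 libraries was most like that of each member were listed by Pearson's correlation of log2(RPKM + 0.1). The libraries share lines and days, so that these correlations are given as a description. For *Adipoq* they were *Plin1* (0.995), *Wfdc21* (0.989) and *Cidec* (0.989), where *Plin1* and *Cidec* encode proteins of the lipid droplet. For *Retn* they were *Adrb3* (0.997), *Cox8b* (0.997) and *Mrap* (0.993), and for *Cfd* they included *Cd36* (0.986) and *Retn* (0.986). For *Adipor2* the first were *Acadvl* (0.986), whose product starts the oxidation of very long fatty acids, and *Uqcrc2* (0.976), a subunit of the respiratory chain. For *Rarres2* they were *Sult1a1* (0.997), *Ttyh1* (0.996) and *Fam107a* (0.992). *Sult1a1* had the same order of lines at day 5, with 57.2 in shControl, 23.1 in shMLL1, 21.9 in shKDM4D and 4.73 in shNFIB cells. For *Nampt* they were *Mrps33*, *Slc35b2* and *Ndufv3* (0.998 to 0.991), for *Apln* they were *Pstk*, *Phf14* and *Ist1* (0.982 to 0.967), for *Angptl4* they were *Tmem170b*, *Agpat3* and *Psma1* (0.990 to 0.971) and for *Adipor1* they were *Mboat7*, *Angel2* and *Tyw1* (0.961 to 0.936).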

How the data were processed

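RNA-seq was done in 8 libraries, 1 for each of 4 lines at day 0 and day 5. Reads were aligned by the authors in CLC Genomics Workbench against GRCm38, and RPKM values were deposited for 41325 gene symbols per library. Their methods name a quantile normalization, which is not visible in the deposited values. The annotation they used is not given in the sources used here. RPKM multiplied by the exon length in GENCODE M21 (40823 symbols) came out within 0.02 of a whole number of reads for 96.2% to 96.6% of values, which gave the depth of each library (15800000 to 38200000 reads). *Angptl4* came out whole with an exon length of 3286 instead of the annotated 3541 bases.

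A gene was counted where its RPKM exceeded 1 in some library, and a difference of more than 2-fold in RPKM, without a pseudocount, was called. The methods of the study also name a limit of 2-fold, together with a false discovery rate and a restriction to protein coding genes that were not applied to these calls. Exact 95% intervals of a ratio (Clopper-Pearson, given the summed reads of both libraries) and intervals of a difference of changes (summed Poisson variances, where all 4 libraries had at least 10 reads) cover counting error only, and comparisons of 1 library with 1 were not tested. Day 5 against day 0 over all 4 lines was tested with limma 3.58.1 (R 4.3.3, line as a block, moderated variances with a trend, 3 residual degrees of freedom). A library at 0 reads was taken at 3 reads to give a bound, and no fold was given where both libraries had at most 3 reads. The computations were tested on simulated data. From lists of partner genes, those past 2-fold in any comparison with an RPKM over 5 in some library were named. *Cdh13*, *Lepr*, *Cap1*, *Aplnr*, *Cmklr1*, *Gpr1*, *Fabp4*, *Thy1* and the overlapping genes fall outside this rule and were named after their values were seen. For each gene, the 3 others with the highest correlation were named, except 1 that is not reported here. The genes and lists were chosen with earlier results of these data known. Python 3.11.15, numpy 2.4.6, pandas 2.3.3 and scipy 1.17.1 were used.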

Additional observations from a re-analysis of the deposited data

Results flagged for a closer look

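The change of *Adipor1* from day 0 to day 5 went one way in shMLL1 cells and the other way in shControl cells. On the log2 scale it was 0.22 (95% counting interval 0.16 to 0.28) in shMLL1 cells and -0.11 (-0.18 to -0.04) in shControl cells, with 1 library at each day in each line. The difference between the lines was not tested. Under other scalings the change in shMLL1 cells was between 0.01 (median of ratios) and 0.12 (quantile normalization) and kept its sign. The change in shKDM4D cells did not keep its sign, since it was -0.18 by RPKM and 0.29 as a ratio to *Gapdh*.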

How the results depend on the processing

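The counts of 6, 6 and 5 genes below shControl cells at day 5, and the count of 8 genes higher at day 5 in shControl cells, stayed within 1.5 times under every alternative run (quantile normalization, median-of-ratios scaling, leaving out 2 genes that resemble ribosomal RNA, the ratio to *Gapdh*, 0.1 or 1 added to each RPKM, an RPKM filter of 2 or none, and a counting interval that leaves out no change). With 1 added to each RPKM, the genes past 2-fold between day 0 and day 5 were 4 instead of 7 in shKDM4D, 2 instead of 5 in shNFIB and 3 instead of 6 in shMLL1 cells. In shNFIB cells they were 3 with quantile normalization and 3 by the interval. By the interval they were 6 in shKDM4D and 4 in shMLL1 cells. At day 0 the counts of 3, 1 and 3 genes past 2-fold in shKDM4D, shNFIB and shMLL1 cells became 5, 3 and 5 with quantile normalization, 1, 0 and 1 with 0.1 added, 1, 0 and 0 with 1 added, and 1, 0 and 1 by the interval. The ratio to *Gapdh* gave 2 in shNFIB cells. Adding a constant shrinks the ratios of low values by construction, and the genes lost with 0.1 added at day 0 had at most 3 reads. With quantile normalization the change of *Adipoq* in shNFIB cells was -0.17 instead of 2.56 and that of *Cfd* in shMLL1 cells -0.77 instead of 2.81. These rest on 5 and 7 reads at day 5, and the cause was not tested. The ratio to *Gapdh* shifted the median of all expressed genes by -0.56 to 0.64. Median-of-ratios scaling shifted it by -0.21 for day 5 over day 0 in shMLL1 cells, quantile normalization by -0.22 there, and setting the median ratio to 0 was an alternative added after seeing the data. The fit of day with the line as a block, added after seeing the data, passed 6 of 9 genes with 4 lines. *Adipoq* lost the call without shKDM4D cells, and *Angptl4* lost it when either shControl or shKDM4D cells were left out. Replicate numbers pair no libraries, since each condition had 1. Depth limits *Adipoq*, *Cfd*, *Retn* and *Rarres2* at day 0, *Kdm4d* throughout and *Lep*.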
